A study of Mus musculus with 20 samples.

Results

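The genes described here are the 10 MHC class II genes that were measured by symbol in mouse kidney RNA, out of 47069 Ensembl genes with an estimated count. They were chosen by name, with earlier results of these data known. H2-Aa, H2-Ab1 and H2-Eb1 encode chains of the class II molecules themselves, Cd74 the invariant chain, H2-DMa, H2-DMb1 and H2-DMb2 the peptide-loading factor H2-DM, H2-Oa and H2-Ob its inhibitor H2-O, and Ciita the class II transactivator. All 10 were among the 17622 genes that passed the filter on low counts.

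Kidneys were taken at 15 weeks of age from 20 male mice of the F1 cross 129SJ x C57Bl/6J, whose parents were both heterozygous for the Col4a3 disruption. The 5 WT mice were untreated, and the other 15 mice were Col4a3-/-, which lack the α3 chain of type IV collagen and serve as a model of Alport syndrome. From 5 weeks of age, 6 of them received PBS once weekly (Veh), 6 received the miR-21 inhibitor lademirsen in PBS at 50 mg/kg subcutaneously once weekly (anti-miR-21), and 3 received the angiotensin-converting enzyme inhibitor ramipril in their drinking water (11 mg/L) together with PBS (ACEi). The deposited library table gives the ramipril dose as mg per kg of body weight instead. The null allele is constitutive and WT mice received no injections, so genotype and injection cannot be told apart between Veh and WT.

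Class II molecules are pairs of an α and a β chain that carry peptides from endocytosed proteins to the cell surface, where CD4+ T cells read them. Dendritic cells, B cells and macrophages express them constitutively or after activation, and interferon-γ induces them in many other cells, among them endothelium and injured tubule epithelium. The invariant chain fills the groove until proteases trim it to a short fragment, H2-DM exchanges that fragment for a peptide, and H2-O holds H2-DM back, mainly in B cells and some dendritic cells. CIITA does not bind DNA itself but joins the RFX and NF-Y complexes at paired X and Y boxes of the promoters of these genes.

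On GRCm38, 8 of the genes lie in one stretch of chromosome 17, in the order H2-Oa (34092340 to 34095234), H2-DMa (34119541 to 34139101), H2-DMb2 (34143307 to 34151555), H2-DMb1 (34153072 to 34160230), H2-Ob (34238903 to 34254414), H2-Ab1 (34257689 to 34269419), H2-Aa (34282744 to 34287823) and H2-Eb1 (34305867 to 34316674). Ciita lies on chromosome 16 (10480059 to 10528418), and Cd74 is also outside this stretch. H2-Aa is on the minus strand and the others on the plus strand.

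Promoter sequences were used here for 7 of the 10 genes (RefSeq, GRCm38.p6), as 8 windows of 300 bases around a gene start, since H2-DMa has 2. H2-Ab1, Cd74 and Ciita were not in that table. The 60-base stretches that end shortly after the Y box are shown for 6 genes because X and Y boxes are the sites at which CIITA acts, and the capitals mark the letters of the X box core (ACNGATG) and of the Y box (ATTGG) where they were found on the strand of the gene. H2-DMa, whose Y box lies farther from its start, is not shown.
H2-Eb1, chr17:34305763-34305822, plus strand: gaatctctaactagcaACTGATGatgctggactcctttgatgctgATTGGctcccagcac
H2-DMb1, chr17:34153085-34153144, plus strand: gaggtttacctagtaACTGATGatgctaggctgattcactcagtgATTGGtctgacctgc
H2-DMb2, chr17:34145114-34145173, plus strand: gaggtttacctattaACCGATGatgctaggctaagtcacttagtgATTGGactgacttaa
H2-Aa, chr17:34287857-34287916, minus strand: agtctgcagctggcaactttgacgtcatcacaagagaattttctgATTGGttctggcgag
H2-Oa, chr17:34092291-34092350, plus strand: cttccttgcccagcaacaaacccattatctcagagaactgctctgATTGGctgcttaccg
H2-Ob, chr17:34238803-34238862, plus strand: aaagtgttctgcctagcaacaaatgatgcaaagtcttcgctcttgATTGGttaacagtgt

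On either strand, the Y box letters were found in all 7 genes and in 7 of their 8 windows, against 37.4% of the 32851 promoters of the table. The X box letters were found in 5 genes (H2-Aa, H2-DMb1, H2-DMb2, H2-Eb1 and H2-Oa) and in 5 of the 8 windows, against 9.85%. In H2-Aa and H2-Oa these letters lay outside the stretches shown and formed no ordered pair with a Y box. The ordered pair was sought on the same strand, with the Y box starting 20 to 50 bases after the start of the X box core. It was found in 3 genes, H2-Eb1, H2-DMb1 and H2-DMb2 (3 of the 8 windows), against 79 promoters or 0.24% of the table. A match of letters is a description of the sequence and does not show that a factor was bound, and a promoter without a match may hold another spelling.

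The count tables held between 28474301 and 29479629 estimated counts per mouse, and counts were scaled between mice with TMM factors and are given as CPM, counts relative to the scaled library total. Col4a3, the disrupted gene, lay between 193.8 and 237.5 CPM in WT and between 27.9 and 74.9 CPM in the 15 Col4a3-/- mice. The libraries were run on flow cell A (13) and flow cell B (7), with every group on both but unevenly. WT had 3 libraries on A and 2 on B, Veh 4 and 2, anti-miR-21 5 and 1, and ACEi 1 and 2. Within Veh, mouse A16 had the highest CPM of all 10 class II genes, and it was left out in turn like every other mouse. The kidneys were measured whole, so fewer cells of a type and less RNA per cell cannot be told apart.

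Together, the 10 genes held between 0.0295% and 0.0545% of all counts in WT, between 0.719% and 0.975% in Veh, between 0.224% and 0.424% in anti-miR-21 and between 0.416% and 0.504% in ACEi. By deposited FPKM, which is per length, the mean in Veh fell in the order Cd74 (3444), H2-Aa (1195), H2-Ab1 (1037), H2-Eb1 (649), H2-DMb1 (109), H2-DMa (70.4), H2-DMb2 (33.9), Ciita (7.70), H2-Oa (5.81) and H2-Ob (3.06). Neighbours whose FPKM ranges overlapped over the 6 Veh mice were H2-Aa and H2-Ab1, Ciita and H2-Oa, and H2-Oa and H2-Ob. The order was the same in anti-miR-21 and ACEi. In WT it was Cd74 (158), H2-Ab1 (62.9), H2-Aa (57.3), H2-Eb1 (33.0), H2-DMb1 (12.9), H2-DMa (4.67), H2-Oa (0.814), H2-DMb2 (0.660), H2-Ob (0.597) and Ciita (0.560), with overlapping ranges among H2-Ab1, H2-Aa and H2-Eb1 in turn and among the lowest 4. The FPKM models of 8 of the 10 genes, not those of H2-DMa and Ciita, were marked by the authors as confounded with other genes, the H2-Eb1 model spans the H2-Aa locus and overlaps the end of H2-Ab1, and H2-DMb1 and H2-DMb2 share one span. With CPM per kilobase of Ensembl exons, H2-Eb1 stood above H2-Ab1 and H2-Aa in Veh, and H2-Oa above Ciita, while Cd74 stood highest, H2-Ab1, H2-Aa and H2-Eb1 stood above the H2-DM genes, and H2-DMb1 stood above H2-DMa on both scales in every group.

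**Figure D1:**
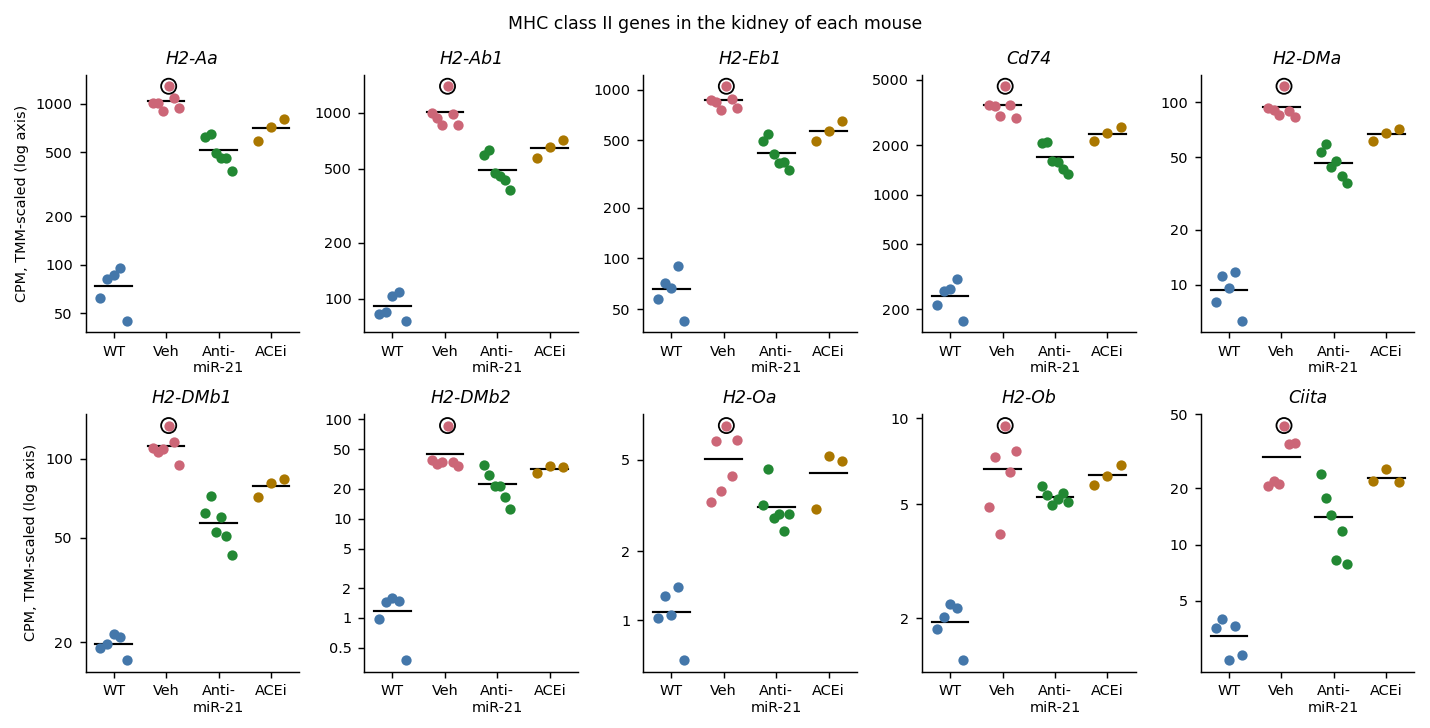
CPM of each class II gene on a log axis, with 1 point per mouse, the group mean as a bar and Veh mouse A16 circled. All Veh mice lie above all WT mice in every panel, and the treated mice lie between them in most.

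In Veh kidneys every class II gene was higher than in WT. H2-Aa, H2-Ab1 and H2-Eb1 rose 11.0- to 13.97-fold, the invariant chain 14.5-fold and the transactivator 9.08-fold. H2-DM subunits rose between 5.66- and 37.8-fold, and the H2-O subunits least, at 4.65- and 3.42-fold. All 10 passed the test, where 39.0% of all tested genes were called higher, and in all 10 the Veh and WT mice did not overlap, where that held for 28.8% of genes. The median log2 fold change of the 10 was 3.40, against 0.07 over all genes tested. The comparison is between PBS-injected Col4a3-/- mice and WT mice without injections, both at 15 weeks of age.

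H2-Ab1, the β chain of I-A, was at 82.4, 85.2, 103.6, 109.4 and 76.4 CPM in the WT mice. In Veh its lowest, median and highest values were 859, 958 and 1387 CPM. The log2 fold change was 3.46 (SE 0.16; edgeR quasi-likelihood test, adjusted p = 1e-12). H2-Aa, the α chain of I-A, was at 62.3, 81.6, 86.1, 95.2 and 45.1 CPM in WT and at 903, 1007 and 1280.2 CPM (lowest, median, highest) in Veh, a log2 fold change of 3.80 (SE 0.19). H2-Eb1, the β chain of I-E, changed by 3.71 (SE 0.18), from 42.8 to 90.3 CPM in WT to 762 to 1048 CPM in Veh. Its partner, the I-E α chain, is a pseudogene in C57BL/6 mice (H2-Ea-ps) and was at 0 counts in all 20 mice.

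Cd74 was the most abundant of the 10 on every scale, at 211.9, 257.7, 264.8, 305.2 and 170.7 CPM in WT and at 2947, 3494 and 4569 CPM (lowest, median, highest) in Veh. Its log2 fold change was 3.86 (SE 0.17; adjusted p = 7.5e-13). In the WT group mouse A18 was the lowest for 9 of the 10 genes, Ciita being the exception, and its summed CPM of dendritic cell, fibroblast, endothelium, podocyte and proximal tubule markers were also the lowest of WT. Without it all 10 calls were kept.

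Among the H2-DM subunits the α chain and the 2 β chains did not move alike. H2-DMa rose from 6.33 to 11.7 CPM in WT to 83.5 to 122.8 CPM in Veh, with a log2 fold change of 3.33 (SE 0.16). H2-DMb1 rose from 17.2 to 21.5 CPM to 94.4 to 133.7 CPM, with a log2 fold change of 2.50 (SE 0.12). H2-DMb2 was at 0.98, 1.44, 1.60, 1.47 and 0.377 CPM in WT, which are only 9 to 38 counts per mouse, and at 33.8, 36.8 and 86.5 CPM (lowest, median, highest) in Veh, with a log2 fold change of 5.24 (SE 0.36; adjusted p = 1e-10). H2-DMb1 and H2-DMb2 share 11.3% and 10.3% of their 100-base stretches with each other, and no other member shared one with another gene, so part of the reads of this pair could have been split by the counting. Summed as 1 gene, the pair rose by 2.90 on the log2 scale.

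The H2-O subunits were low in every group. H2-Oa was at 1.02, 1.27, 1.06, 1.39 and 0.671 CPM in WT, and in Veh at 3.26, 5.15 and 7.04 CPM (lowest, median, highest), a log2 fold change of 2.22 (SE 0.25; adjusted p = 7.8e-08). H2-Ob was at 1.83, 2.01, 2.24, 2.17 and 1.43 CPM in WT and at 3.95, 6.91 and 9.44 CPM in Veh, a log2 fold change of 1.77 (SE 0.18; adjusted p = 2.7e-08). Both groups were separate for both genes.

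Ciita was at 3.56, 3.98, 2.41, 3.68 and 2.56 CPM in WT. In Veh the mice A1, A4 and A9 were at 20.6, 21.9 and 21.03 CPM, and A16, A19 and A20 at 43.4, 34.5 and 35.2 CPM. The log2 fold change was 3.18 (SE 0.29; adjusted p = 5.3e-09). The higher 3 Veh mice comprise 2 libraries of flow cell B and 1 of flow cell A. The summed CPM of adipocyte markers divided the Veh mice in the same way. It was 90.1, 120.3 and 90.5 in A1, A4 and A9, and 8.76, 1.02 and 0.677 in A16, A19 and A20. In anti-miR-21, A12 had the highest sum (99.7) with Ciita at 8.28 CPM, but A22, with the lowest Ciita (7.87 CPM), had a sum of 3.41. The part of adipose tissue in these values was not tested. Exons of Ciita overlap those of Dexi on the other strand by 329 bases, exons of H2-DMa those of Brd2 by 360 and exons of H2-Oa those of BC051537 by 321, and whether the counting used strand is not given in the sources used here, so reads in these stretches could belong to either gene.

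Scaling moved these fold changes without changing a call in this comparison. With library totals alone in place of TMM, the median of all genes moved from 0.07 to 0.65 on the log2 scale and that of the 10 members from 3.40 to 3.97, so that the members stood 3.33 and 3.32 above the median gene. The share of calls that were higher in Veh rose from 53.4% to 81.2% over all genes. Within flow cell A the median of the members was 3.31 and all 10 were called.

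**Figure D2:**
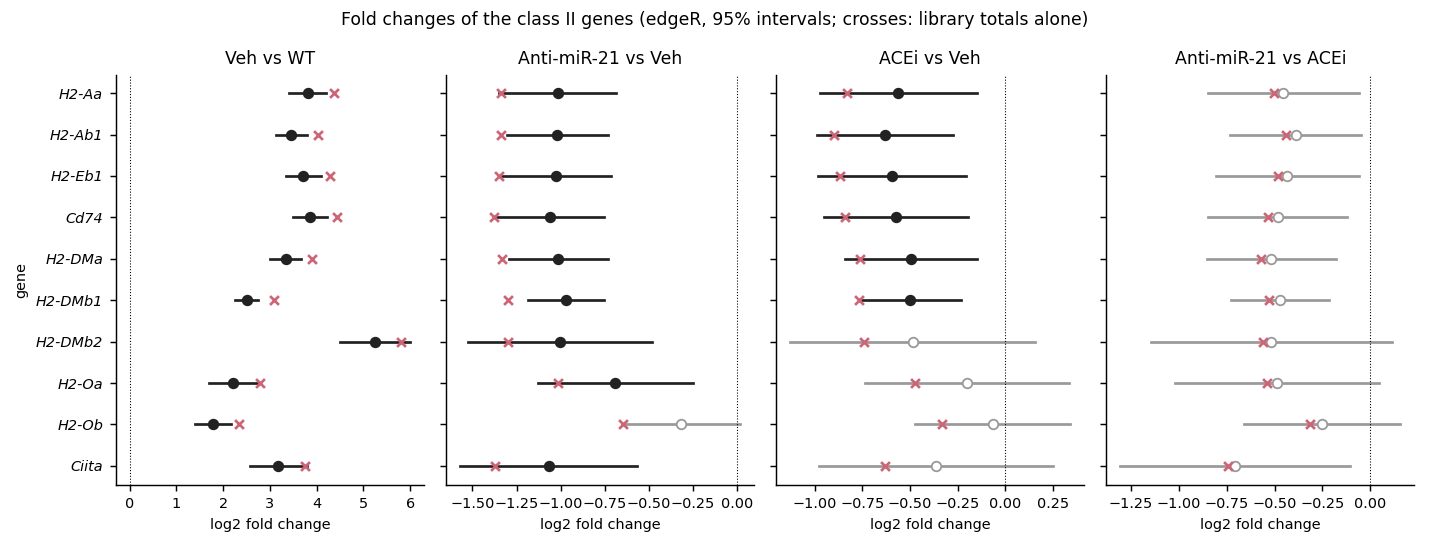
Log2 fold changes of the class II genes in 4 comparisons (x axes differ between panels), with edgeR estimates as points, 95% intervals as lines, filled points for genes past the threshold, and crosses for the estimates with library totals alone. All 10 genes are called in Veh vs WT, 9 in anti-miR-21 vs Veh, 6 in ACEi vs Veh and none in anti-miR-21 vs ACEi.

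In anti-miR-21 kidneys 8 of the 10 class II genes were at 0.477 to 0.511 of the Veh level. H2-Aa, H2-Ab1, H2-Eb1, Cd74, the H2-DM genes and Ciita fell by nearly the same factor, H2-Oa by less, and H2-Ob did not pass the test. In all, 9 of 10 were called lower, where 30.5% of all tested genes were, and 6 of 10 had no overlap between the groups, where 17.9% of genes did. The median log2 fold change was −1.01, against −0.04 over all genes. All 10 stayed above WT (23.9% of genes were called higher), with a median log2 fold change of 2.38.

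H2-Ab1 was at 383, 464 and 631 CPM (lowest, median, highest) in anti-miR-21, with a log2 fold change of −1.02 (SE 0.14; adjusted p = 3e-06) against Veh. Cd74 was at 1331, 1591 and 2105 CPM, with a log2 fold change of −1.06 (SE 0.15; adjusted p = 4.1e-06). The ranges of both genes lay wholly below those of Veh. The same was seen for H2-Aa (−1.02, SE 0.16), H2-Eb1 (−1.03, SE 0.15), H2-DMa (−1.01, SE 0.13) and H2-DMb1 (−0.97, SE 0.10).

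H2-DMb2 fell by 1.003 on the log2 scale (SE 0.25; adjusted p = 0.0019), with 5 of 6 mice below every Veh mouse and 1, A2 at 34.7 CPM, within the Veh range. Without Veh mouse A16 the value was −0.68 and the gene was still called. Ciita was at 7.87, 13.1 and 23.9 CPM (lowest, median, highest), a log2 fold change of −1.07 (SE 0.24; adjusted p = 0.00077), with 5 of 6 mice below the Veh range. H2-Oa was at 2.44, 2.90 and 4.56 CPM, a log2 fold change of −0.69 (SE 0.21; adjusted p = 0.0081), and also had 5 of 6 mice below the Veh range. Within flow cell A its value was −0.43 and the call was lost (adjusted p = 0.11, the highest of its alternatives, the lowest being 0.000105).

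H2-Ob was at 4.97, 5.30 and 5.79 CPM in anti-miR-21, a range narrower than, and inside, that of Veh. Its log2 fold change was −0.32 (95% interval −0.65 to 0.02; adjusted p = 0.095). The call depends on the processing, since H2-Ob passed the threshold in 5 of 11 other settings. Among these were library totals alone (−0.65) and upper-quartile scaling (−0.39). It also depends on single Veh mice, since without A9 the value was −0.41 and passed (edgeR, adjusted p = 0.0161). Without Veh mouse A16 the value was −0.17 (adjusted p = 0.342), and over all alternatives the adjusted p lay between 0.000975 and 0.748. For the other genes, scaling by library totals shifted members and background together: the median of the members became −1.34 and that of all genes −0.38, which left the members 0.97 and 0.96 below the median gene. The share of calls that were higher in anti-miR-21 went from 48.6% to 19.96% over all genes.

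In ACEi kidneys 6 of the 10 class II genes were called lower than in Veh. They were H2-Ab1, H2-Eb1, Cd74, H2-Aa, H2-DMa and H2-DMb1, at 0.645 to 0.709 of the Veh level, where 19.1% of all tested genes were called lower. These 6 were also the members whose ranges did not overlap with Veh, which held for 18.8% of genes. H2-DMb2, H2-Oa, H2-Ob and Ciita did not pass the test. The median log2 fold change of the 10 was −0.50, against −0.05 over all genes, and all 10 remained above WT (25.2% of genes were called higher) with a median log2 fold change of 2.83.

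In the 3 ACEi mice, H2-Ab1 was at 573, 653 and 717 CPM, below the lowest Veh mouse, with a log2 fold change of −0.63 (SE 0.17; adjusted p = 0.0061). Cd74 was at 2126, 2369 and 2571 CPM, with a log2 fold change of −0.58 (SE 0.18; adjusted p = 0.016). H2-DMb1 was at 71.4, 81.1 and 84.0 CPM, with a log2 fold change of −0.50 (SE 0.13; adjusted p = 0.0041). All 3 mice lay below the Veh mice for each of these genes.

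Ciita was at 21.8, 25.3 and 21.5 CPM, within the Veh range, with a log2 fold change of −0.36 (95% interval −0.98 to 0.25; adjusted p = 0.34), and −0.19 without Veh mouse A16. H2-DMb2 was at 28.96, 33.9 and 32.9 CPM, a log2 fold change of −0.49 (95% interval −1.13 to 0.16; adjusted p = 0.22), and −0.16 without Veh mouse A16 (adjusted p = 0.628). For H2-Oa the log2 fold change was −0.20 (95% interval −0.74 to 0.33) and for H2-Ob −0.07 (95% interval −0.47 to 0.34), and without Veh mouse A16 they were −0.06 and 0.09. The number of genes called rests on single libraries, since 6 became 2 without ACEi mouse A11 or without ACEi mouse A13, 4 without Veh mouse A16 and 5 without Veh mouse A19. H2-Ab1 and H2-DMb1 kept their calls under each of these. With library totals alone the median of the members was −0.77 and that of all genes −0.32, which left the members 0.45 below the median gene, as with TMM, and the share of calls that were higher in ACEi went from 52.4% to 20.5%, and to 41.5% with upper-quartile scaling. Against WT, the share of calls that were higher went from 54.6% to 88.6% in anti-miR-21 and from 52.7% to 85.6% in ACEi with library totals alone, and all 10 genes stayed called. Flow cell A holds 1 ACEi library, so this comparison was not run within it, and with flow cell as a term 6 genes were called.

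The 2 treatments were compared with each other, since both were compared with the same Veh mice. All 10 estimates were lower in anti-miR-21 than in ACEi, between −0.25 (H2-Ob) and −0.71 (Ciita) on the log2 scale with a median of −0.48, but none passed the edgeR test, where 0.221% of genes were called lower. At an unadjusted p under 0.05 there were 7, DESeq2 called 1 (H2-DMb1) and limma on log2(FPKM + 1) called 0. Cd74, H2-DMa and H2-Ob did not overlap between the groups, where this held for 4.8% of genes. The smallest adjusted p was that of H2-DMb1, at −0.47 (95% interval −0.73 to −0.21; adjusted p = 0.08), and over its alternatives the adjusted p lay between 0.0235 and 0.406. The 95% interval for Ciita ran from −1.31 to −0.10 before adjustment for the number of genes. Flow cells were uneven here, with 5 anti-miR-21 libraries on A and 1 on B, and 1 and 2 for ACEi. With flow cell as a term Ciita was at −0.56 and H2-DMb2 at −0.42, against −0.52 without it, and no member was called.

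To see how far each treated mouse lay on the way from the mean of Veh to the mean of WT, its log2 CPM was placed between them, with 0% at Veh and 100% at WT. Over the 10 genes the median position was 20.2%, 18.1%, 29.7%, 31.2%, 33.8% and 36.7% in the anti-miR-21 mice A2, A8, A10, A12, A15 and A22, and 19.6%, 13.7% and 11.0% in the ACEi mice A11, A13 and A23. H2-DMb1 was nearest to WT, at 39.3% ± 10.4 (SD, n = 6) in anti-miR-21 and 19.8% ± 4.94 (n = 3) in ACEi. H2-Ob was farthest, at 15.2% ± 4.62 and 0.744% ± 6.93. Ciita varied most among the anti-miR-21 mice, from 7.51% in A2 to 58.6% in A22. The mean position of the members was 28.3% ± 7.52 in anti-miR-21 and 14.7% ± 4.42 in ACEi. Over the 6869 genes called higher in Veh than in WT the mean of the mouse medians was 48.2% ± 11.3 and 35.5% ± 4.99, and over the 2426 of them that rose at least as much as H2-Ob it was 39.6% ± 10.6 and 26.0% ± 4.26. In each of the 9 treated mice the median of the class II genes lay below both of these medians, though single genes did not (Ciita was at 56.3% in A12 and H2-DMb1 at 42.8% in A10). The 2426 genes were not matched to the members in rise. H2-Ob, which set their lower bound, rose by 1.77 on the log2 scale, and the median member by 3.40. Both sets of genes were also picked by their calls in these same mice. The positions use the Veh and WT means of the same mice as the fold changes and are given without a test.

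**Figure D3:**
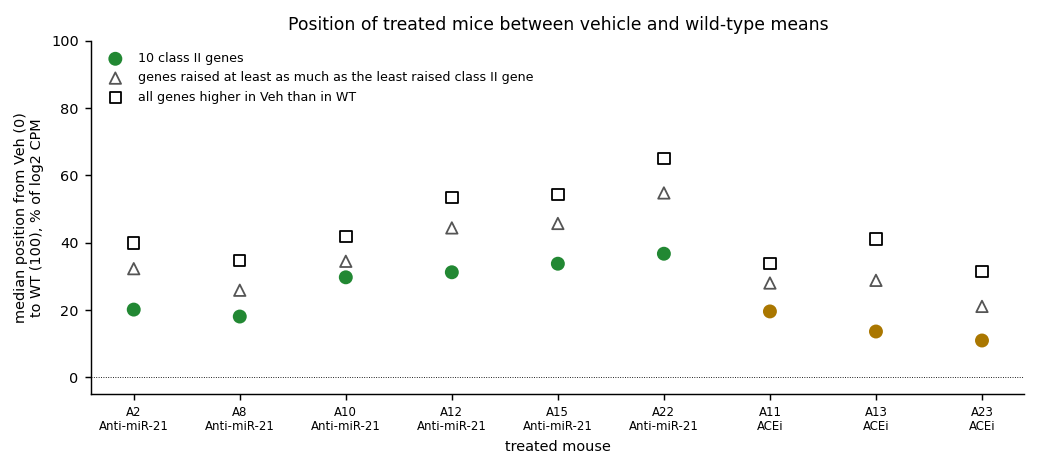
Median position of each treated mouse between the Veh mean (0%) and the WT mean (100%), for the 10 class II genes (circles), for genes raised at least as much as H2-Ob (triangles) and for all genes called higher in Veh (squares). The circles, from 11.0% to 36.7%, are the lowest of the 3 in every mouse.

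Apart from the prior count, ratios of 2 genes within a mouse do not depend on the scaling. Of these, 10 were compared, 8 between members and 2 of H2-Ab1 to another gene (B2m and Adgre1). Exact two-sided permutation tests were used in 4 comparisons, adjusted over the 40 tests. The ratios were taken from log2 CPM with a prior count of 2. For genes with few counts they therefore differ somewhat from the ratios of the CPM values given above. The smallest p these allow is 0.00216, or 0.0119 with the 3 ACEi mice, and 8 of the 40 passed. In Veh the make-up of the class II genes differed from WT: for each H2-Ab1 there was more H2-Aa and Cd74, for each H2-DMb1 more H2-DMb2, and for each H2-DMa less H2-Oa and H2-Ob.

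The ratio of H2-DMb2 to H2-DMb1 lay between 0.0259 and 0.0774 in WT and between 0.318 and 0.647 in Veh. The log2 difference was 2.73 (exact permutation test, adjusted p = 0.0144), which is 6.62-fold, and it was 2.44 without WT mouse A18, 2.57 without Veh mouse A16, 2.29 within flow cell A and 3.47 within flow cell B. In anti-miR-21 it lay between 0.291 and 0.560 and in ACEi between 0.392 and 0.418, both overlapping with Veh.

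The ratio of H2-Ob to H2-DMa, an inhibitor subunit to a subunit of its target, lay between 0.186 and 0.239 in WT and between 0.0469 and 0.0927 in Veh, a log2 difference of −1.65 (exact permutation test, adjusted p = 0.0144). In anti-miR-21 it lay between 0.0921 and 0.142, a log2 difference from Veh of 0.76 (exact permutation test, adjusted p = 0.0216), and in ACEi between 0.0931 and 0.0973, with a difference of 0.47 that did not pass (exact permutation test, adjusted p = 0.168). Within flow cell A and flow cell B the difference between anti-miR-21 and Veh was 0.92 and 0.43, the latter from 1 anti-miR-21 and 2 Veh mice. The ratio of H2-Oa to H2-DMa was between 0.115 and 0.135 in WT and between 0.0356 and 0.0734 in Veh, a log2 difference of −1.21 (exact permutation test, adjusted p = 0.0144). H2-Oa relative to H2-DMa did not pass in either treatment.

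Among H2-Aa, H2-Ab1, H2-Eb1 and Cd74 the shifts were smaller. The ratio of H2-Aa to H2-Ab1 had a median of 0.831 in WT and 1.07 in Veh, a log2 difference of 0.39 (exact permutation test, adjusted p = 0.0216), and it missed the threshold when any of the Veh mice A1, A4, A9, A19 or A20 was left out (adjusted p = 0.0705 each). The ratio of Cd74 to H2-Ab1 had a median of 2.57 in WT and 3.52 in Veh, a log2 difference of 0.42 (exact permutation test, adjusted p = 0.0144). The median stayed at 3.43 in anti-miR-21 and 3.63 in ACEi. The ratios of H2-Eb1, H2-DMa and Ciita to H2-Ab1 passed in none of the 4 comparisons. For Ciita to H2-Ab1 the log2 difference was −0.33 in Veh against WT, −0.10 in anti-miR-21 against Veh and 0.31 in ACEi against Veh.

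**Figure D4:**
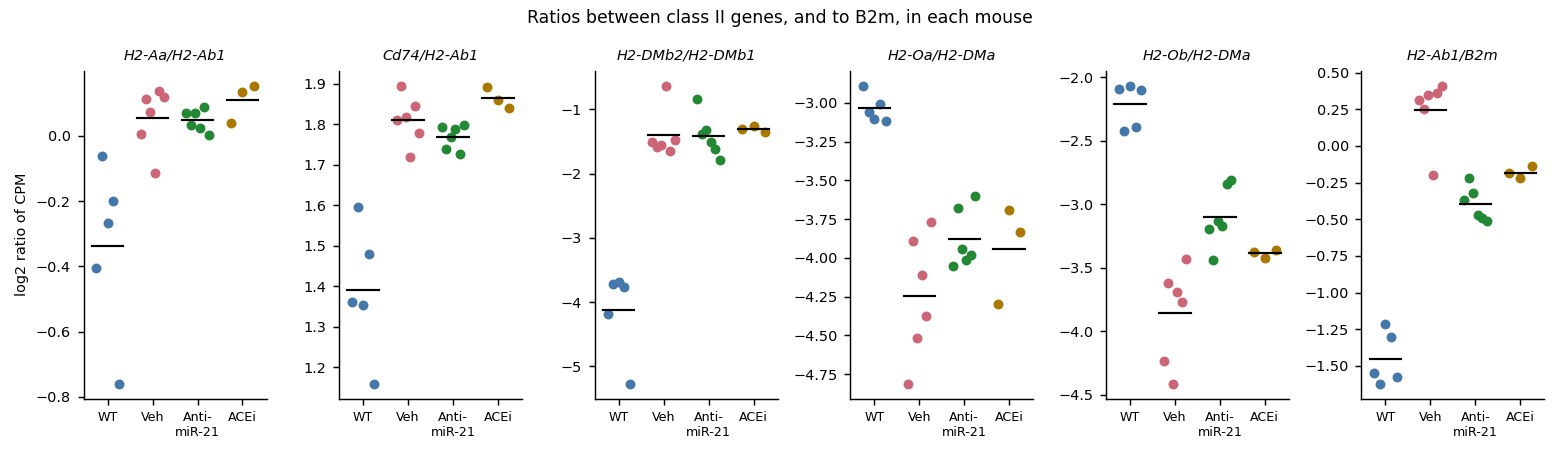
Log2 ratio of 6 pairs of genes, with 1 point per mouse and the group mean as a bar. H2-DMb2/H2-DMb1 is higher in every Veh than in every WT mouse, H2-Oa/H2-DMa and H2-Ob/H2-DMa are lower, and H2-Ab1/B2m is lower in every anti-miR-21 mouse than in every Veh mouse.

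The lists that follow are read beside all tested genes, of which 39.0% were called higher and 34.0% lower in Veh than in WT, 30.5% lower and 28.8% higher in anti-miR-21 than in Veh, and 19.1% lower and 21% higher in ACEi than in Veh. Class I genes, which present peptides from inside the cell to CD8+ T cells, were also measured. Of 14 genes of class I presentation, 12 were called higher and 2 lower in Veh against WT (median log2 fold change 1.82). The 2 lower were the chaperones Calr and Pdia3, named here after their values were seen. Psmb8, an immunoproteasome subunit, changed by 3.26 (SE 0.23) and Nlrc5, the transactivator of class I genes, by 3.08 (SE 0.29). In anti-miR-21 11 of 14 were called lower than in Veh (30.5% of all genes), and in ACEi 2 of 14 (19.1%). The ratio of H2-Ab1 to B2m, the light chain of class I, rose from between 0.325 and 0.431 in WT to between 0.871 and 1.33 in Veh (log2 difference 1.70; exact permutation test, adjusted p = 0.0144). It fell to between 0.702 and 0.860 in anti-miR-21 (log2 difference −0.64; exact permutation test, adjusted p = 0.0144), and lay between 0.860 and 0.907 in ACEi (log2 difference −0.43; exact permutation test, adjusted p = 0.102). Class I heavy chain genes are near-identical copies, and their counts are uncertain.

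Of the genes that process antigen for class II or act on its molecules, 9 of 10 were tested and 6 were called higher and 2 lower in Veh against WT (median log2 fold change 0.67). Ctss, the cathepsin that trims the invariant chain, rose from 8.19 to 225.4 CPM (means), a log2 fold change of 4.78 (SE 0.25), and fell by 1.01 (SE 0.19) in anti-miR-21 and by 0.86 (SE 0.24) in ACEi. H2-Eb2, a second I-E β gene whose promoter also holds the X and Y pair, was at 0 to 2 counts per mouse in WT and at 14 to 90 in Veh, and did not pass the test in either treatment. March8, a ubiquitin ligase that removes class II from the surface, was one of the 2 lower genes (log2 fold change −0.98, SE 0.08) and was higher than in Veh in both treatments. It is named after its values were seen. In anti-miR-21 4 of 9 were called lower than in Veh and 1 higher (30.5% and 28.8% of all genes), and in ACEi 2 lower and 2 higher, which is near the 19.1% and 21% of all genes.

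Of 15 genes of class II transcription and the interferon-γ pathway, 14 were tested and Ifng was not, because its counts did not pass the filter. Against WT, 9 were called higher and 1 lower in Veh (median log2 fold change 0.43). Irf1, a transcription factor induced by interferon, changed by 2.62 (SE 0.19), and Socs1, a feedback inhibitor of its signalling, by 1.98 (SE 0.25). Rfx5, the DNA-binding RFX subunit, changed by 0.61 (SE 0.09), and Rfxank (−0.05, SE 0.07), Rfxap (0.07, SE 0.07), Nfya (0.21, SE 0.11) and Nfyb (0.14, SE 0.08) did not pass the test. The third NF-Y subunit, Nfyc, was the gene called lower (−0.57, SE 0.06) and was higher in anti-miR-21 than in Veh (0.37, SE 0.06). These 6 are named after their values were seen. In anti-miR-21 6 of 14 were called lower than in Veh and 1 higher, and in ACEi 3 of 14 lower, near the 19.1% of all genes. Irf1 changed by −0.81 (SE 0.17) in anti-miR-21 and by −0.37 (SE 0.21; adjusted p = 0.16) in ACEi.

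The genes through which T cells meet class II rose as well. All 11 tested of 12 genes for the CD4 co-receptors, costimulators and their inhibitors were called higher in Veh against WT (median log2 fold change 3.15). Ctla4, an inhibitory receptor of T cells, changed by 5.25 (SE 0.69) and Pdcd1lg2, a ligand of the receptor PD-1, by 4.75 (SE 0.64), both from at most 3 counts in every WT mouse, so the size of these estimates depends on the prior count. In anti-miR-21 8 of 11 were called lower than in Veh and in ACEi 5 of 11. Of 5 ligands and partners of CD74, 3 were called higher and 2 lower in Veh (39.0% and 34.0% of all genes), with Cd44, its signalling partner, at 5.16 (SE 0.23) and the chemokine receptor Cxcr4 at 1.77 (SE 0.19). The 2 lower were its ligands Mif (−0.44, SE 0.10) and Ddt (−1.66, SE 0.14).

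Markers of macrophages, dendritic cells and T cells were mostly called higher in Veh, as the members were, and their part in the result was not tested. The summed CPM of 8 macrophage markers was between 184.7 and 202.3 in WT, 1302 and 1574 in Veh, 550.1 and 1024 in anti-miR-21 and 666 and 886 in ACEi, and 7 of the 8 were called higher in Veh than in WT and lower in each treatment than in Veh. The eighth, Mertk, named after its values were seen, was called in the opposite direction each time (−0.51 in Veh against WT). The sum of 9 dendritic cell markers was between 9.61 and 21.04 in WT, 81.2 and 114.0 in Veh, 46.2 and 78.7 in anti-miR-21 and 67.4 and 86.3 in ACEi, with all 9 called higher in Veh, 5 called lower in anti-miR-21 and 2 in ACEi. The sum of 5 T cell markers was between 1.86 and 2.54 in WT, 8.57 and 33.6 in Veh, 6.67 and 14.2 in anti-miR-21 and 8.79 and 17.4 in ACEi, with all 5 called higher in Veh, 4 lower in anti-miR-21, and a median log2 fold change of −0.23 in ACEi against Veh with adjusted p between 0.51 and 0.82 for the 5 genes by edgeR. The sum of 6 B cell markers stayed low, between 2.17 and 4.05 in WT and between 5.89 and 7.75 in Veh, with 3 of the 5 tested called higher in Veh. It was between 4.28 and 6.47 in anti-miR-21, with 1 of 5 called lower than in Veh, and between 4.98 and 6.27 in ACEi, where the median log2 fold change against Veh was −0.25 with adjusted p between 0.24 and 0.95 by edgeR. No defining marker of these 4 cell types was at 0 throughout a group. The 5 proximal tubule markers summed to between 11688 and 14986 CPM in WT, 1291 and 3629 in Veh, 6394 and 10659.7 in anti-miR-21 and 6650 and 8710.0 in ACEi, with all 5 called lower in Veh and higher in each treatment. All 4 tubule injury markers, all 5 fibroblast markers, 3 of 4 podocyte, 2 of 4 plasma cell and 2 of 5 endothelium markers were also called higher in Veh, the last at about the share of all genes (39.0%), and 1 endothelium marker was called lower. Adipocyte markers, which are not of the kidney parenchyma, summed to between 0.656 and 6.91 CPM in WT, 0.677 and 120.3 in Veh, 1.76 and 99.7 in anti-miR-21 and 0.394 and 3.04 in ACEi, with 4 of 5 called higher in Veh than in WT and 4 of 5 lower in ACEi than in Veh. These calls rest on single mice. In Veh the sums of A1, A4 and A9 were 90.1, 120.3 and 90.5, that of A16 was 8.76, and those of A19 (1.02) and A20 (0.677) lay within the WT range. In anti-miR-21 the sum was 99.7 in A12 and 22.4 in the next mouse, A15.

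The ratio of H2-Ab1 to the macrophage gene Adgre1, which encodes F4/80, was between 17.7 and 35.3 in WT, 15.6 and 23.3 in Veh, 15.7 and 22.3 in anti-miR-21 and 14.5 and 21.4 in ACEi. The log2 difference of Veh from WT was −0.57 (exact permutation test, p = 0.0238, adjusted p = 0.0866), and it was −0.73 without WT mouse A6 (exact permutation test, adjusted p = 0.0381), whose log2 ratio of 4.14 was apart from the 4.88 to 5.14 of the other WT mice. That of anti-miR-21 from Veh was −0.05 and that of ACEi from Veh −0.07. Veh mouse A16 had the highest summed class II genes (8687 CPM, with a Veh median of 6596), class I genes (7443, median 4441) and T cell markers (33.6, median 14.7), but the lowest macrophage sum of the Veh mice (1302).

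**Figure D5:**
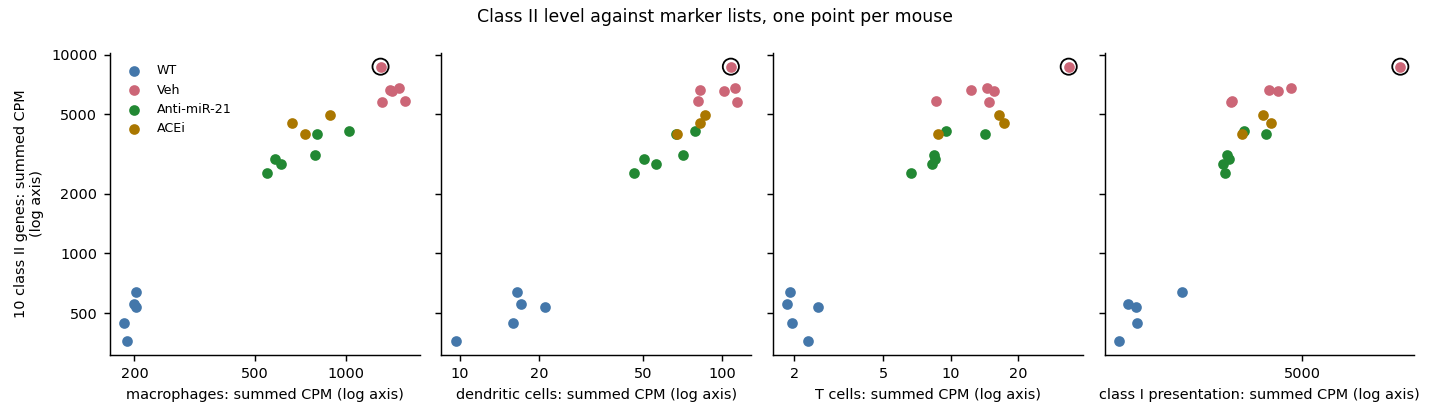
Summed CPM of the 10 class II genes against summed CPM of macrophage, dendritic cell and T cell markers and of class I presentation genes, with 1 point per mouse on log axes and Veh mouse A16 circled. WT mice are low on both axes in each panel, and A16 is the highest for class II, T cells and class I but the lowest of Veh for macrophages.

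Genes near to a member were sought among 13418 protein-coding genes, members included, that passed a floor on mean log2 CPM. The measure was the root mean square distance of log2 CPM over the 20 mice, centred on the mean of each gene. The nearest genes outside the members are given first. For H2-Ab1 they were Sash3 (0.14), Glipr1 (0.17), Alox5ap (0.17), Coro1a (0.17) and Laptm5 (0.17), and its nearest member was H2-DMa (0.13). For Cd74 they were Ly86 (0.16), Pld4 (0.17), Rac2 (0.17), Cd53 (0.19) and Il21r (0.19), while H2-Aa (0.08) and H2-Eb1 (0.09) were nearer. For Ciita the nearest genes were farther off, Rasal3 (0.27) first, and Ptprc, Nlrp1b, Gpr153 and Igsf10 at 0.31 to 0.32. For H2-Oa they were Naaa (0.21), Plbd1 (0.21), Cd37 (0.24), Tmem229b (0.25) and Rnase6 (0.25), and for H2-Ob Gimap3 (0.19), Tap2 (0.22), Sp100 (0.23), Naaa (0.23) and Cx3cl1 (0.25).

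These distances are set mostly by the difference between groups. On the deviations of each mouse from its group mean, the genes nearest to H2-Ab1 were Psmb10 (0.10), Tapbp (0.11), Dhx58 (0.12), Tap2 (0.12) and Irf1 (0.12), of which Psmb10, Tapbp and Tap2 belong to class I presentation. Those nearest to Cd74 were Tmem173 (0.11), Tap2 (0.12), Slfn2 (0.12), Lpxn (0.12) and Irf1 (0.13). For Ciita they were Tnks (0.23), Stat2 (0.25), Nlrc5 (0.26), Rasal3 (0.26) and Trim14 (0.26), for H2-Oa Plbd1 (0.18), Naaa (0.21), Cd37 (0.21), Rnase6 (0.22) and Plcb2 (0.23), and for H2-Ob Tmed6 (0.14), Gimap4 (0.15), Naaa (0.15), Plbd1 (0.15) and Tfpi2 (0.15). Plbd1 and Naaa were thus among the nearest genes of both H2-O subunits. Of the members, H2-Aa, H2-Ab1, H2-Eb1, H2-DMa and H2-DMb1 lay at 0.07 to 0.12 from Cd74, and H2-DMb2, H2-Oa, H2-Ob and Ciita at 0.23 to 0.34. These likenesses describe 20 libraries and say nothing of shared function.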

How the data were processed

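Total RNA of 20 kidneys was sequenced as 100 bp paired-end reads on a HiSeq 2000. The authors aligned reads to GRCm38 with the OmicSoft aligner (70004591 to 73294858 alignments per library, per the library table) and deposited estimated counts for 47069 Ensembl genes, without normalization between mice. The authors also deposited FPKM on other gene models. The FPKM table held 3 columns of libraries matched to no mouse of these groups, which were not used. The deposited library labels name kidney as tissue, while the extraction text mentions adipose tissue.

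Counts, of which 27.9% of positive values were not whole, were rounded, filtered with filterByExpr (minimum count 10, minimum total 15), scaled by TMM and tested with the edgeR 4.0.16 quasi-likelihood test in R 4.3.3, with 1 coefficient per group over 20 mice and Benjamini-Hochberg adjustment over 17622 genes at 0.05. A prior count of 2 entered log2 CPM. Alternatives were DESeq2 1.42.0, limma 3.58.1, other scalings and filters, flow cell and each mouse left out. Plots used Python 3.11.15 and matplotlib 3.10.9. The steps were tested on simulated data.

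Groups follow the labels. All 10 members are described; of each other list, the 2 called genes that changed most between Veh and WT were named, and others as said. The members and lists were chosen with earlier results of these data known. Libraries held 28474301 to 29479629 counts, of which the lowest members had 9 to 53 in WT, and p-values cover the spread between mice only.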

Additional observations from a re-analysis of the deposited data

Results flagged for a closer look

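Within a group of 4 to 10 mice, the gap of the highest or lowest mouse was set against Dixon's 95% critical value. It was larger in 10 of the 60 groups of values examined (30 of CPM and 30 of log2 ratios). For independent groups chance alone flags about 1 in 20, but these groups share mice and genes. The 10 flags therefore cannot be set against that share. Of the 10, 7 were Veh mouse A16: H2-Ab1 at 1387 CPM (next mouse 1001), Cd74 at 4569 (3524), H2-DMa at 122.8 (93.5) and H2-DMb2 at 86.5 (38.8), and the log2 ratios H2-Eb1/H2-Ab1 at −0.40, H2-DMb2/H2-DMb1 at −0.63 and H2-Ab1/B2m at −0.20. The others were the log2 ratio H2-Ab1/Adgre1 of WT mouse A6 at 4.14, H2-Oa of anti-miR-21 mouse A8 at 4.56 CPM, and the log2 ratio H2-DMa/H2-Ab1 of anti-miR-21 mouse A12 at −3.25. Leaving out A16 kept the 10 calls between Veh and WT and the 9 between anti-miR-21 and Veh, and moved the 6 between ACEi and Veh to 4.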

How the results depend on the processing

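No paired analysis was possible because the replicate names in the labels are unique to each mouse. Over all alternatives run, 9 or 10 genes stayed called in Veh vs WT, anti-miR-21 vs WT and ACEi vs WT (9 where a gene with under 10 counts in a mouse was left out of the test) and 8 to 10 in anti-miR-21 vs Veh. In ACEi vs Veh the count was 6 under the 10 other settings and between 2 and 6 with 1 mouse left out. In anti-miR-21 vs ACEi it was 1 with DESeq2 and between 0 and 1 with 1 mouse left out (H2-DMb1, without anti-miR-21 mouse A8), and 0 under the remaining settings. The settings within flow cell A were not run for ACEi, which has 1 library there. In ACEi vs Veh 3 estimates near 0 changed sign with 1 mouse left out. They were H2-Ob, which ranged from −0.151 to 0.0879 (above 0 without Veh mouse A16 or A20), and H2-Oa, which ranged from −0.333 to 0.00928 (above 0 without ACEi mouse A11). Fewer mice enter these fits. The number of ratios that passed was 8 with a prior count of 0.5 and with FPKM + 0.1, and between 7 and 11 with 1 mouse left out (11 without WT mouse A6). Of the other listed genes 99 were called in Veh vs WT, and 77 to 105 under the alternatives. The sum of the H2-DMb1 and H2-DMb2 counts and the positions between Veh and WT with library totals alone (32.5% in anti-miR-21 and 19.1% in ACEi) were added after seeing the data. A spacing of 15 to 60 bases between the boxes gave 3 member genes (3 of 8 windows) and 113 promoters or 0.344%. Depth limits H2-DMb2, H2-Oa and H2-Ob in WT, with 9 to 53 counts per mouse.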
